A study of Mus musculus with 2 samples.

Results

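In single-cell data from subcutaneous MC38 tumours, 140 of 4932 C1q-positive cells carried 2 or more unique molecular identifiers (UMIs, 1 per captured transcript) of Lyve1 and Fcna together. These 140 cells are called Lyve1 and Fcna cells here. They came from 29048 barcodes in all, and 109 of them were in the tumour library that overexpressed UBD against 31 in the control library. The cells were chosen by measured values: at least 500 UMIs and 200 genes, a mitochondrial share of at most 20%, Cdkn2a under 5 UMIs per 10000, C1qa, C1qb and C1qc summing to at least 10 per 10000, and 2 or more summed UMIs of Lyve1 and Fcna. The Cdkn2a limit was set to leave out tumour cells. The comparison cells were the C1q-positive cells with 0 UMIs of both genes, 2871 in control tumour and 1751 in UBD tumour. C1q-positive cells with exactly 1 UMI, 42 in control tumour and 128 in UBD tumour, belonged to neither set.

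MC38 is a mouse colon carcinoma line. The series concerns UBD, the ubiquitin-like modifier also called FAT10, in immune evasion of colorectal cancer. The control library was labelled as the control group and the other as the UBD overexpression group, and both came from subcutaneous tumours grown in mice, minced, digested and freed of red cells. The strain and age of the mice, the number of animals behind each library and how UBD was introduced were not stated in the sources at hand. Each group held 1 library, so there was no replicate and no test, and every interval below is a 95% interval for counting error only. A difference between the libraries cannot be told apart from a difference between animals, tumours or preparations. Ubd itself had 0 UMIs in the Lyve1 and Fcna cells of both libraries. In cells with Cdkn2a at 5 or more per 10000 it stood at 0.322 CPM (UMIs of a gene per 1000000 UMIs summed over the cells) in control tumour and 1.15 CPM in UBD tumour, from 43 and 190 UMIs. Whether the 3' tags can read the introduced copy was not tested.

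Tissue-resident macrophages persist in organs alongside macrophages that arise from blood monocytes. In many mouse tissues a perivascular or interstitial subset carries LYVE1, a hyaluronan receptor first known from lymphatic vessels, together with the mannose receptor CD206 (Mrc1), the folate receptor FOLR2 and the haemoglobin scavenger CD163, and has low MHC class II. Fcna encodes ficolin A, a secreted lectin of the complement system that macrophages make. These cells take up proteins, debris and iron, and the transcription factor MAF is known to help hold macrophages in such a state. The label was checked against Mrc1 and Folr2, which the selection did not use. Mrc1 stood at 915 CPM (787 to 1058) in control and 927 CPM (860 to 997) in UBD Lyve1 and Fcna cells, against 210 and 243 CPM in comparison cells. Folr2 stood at 1262 CPM (1111 to 1429) and 1045 CPM (975 to 1120), against 140 and 118 CPM. Both genes were several times higher in the selected cells of each library. The 8 macrophage markers were all detected in both libraries. Their sums were 13887 and 14800 CPM against 11745 and 12247 CPM in comparison cells. They include C1qa, C1qb and C1qc, which the rule used, so the sums follow in part from the selection. With every cell thinned to 1000 UMIs, Csf1r was found in 54.8% of control Lyve1 and Fcna cells against 15.7% of comparison cells. In the UBD library it was 33.0% against 22.9%. Adgre1 was lower in the control, 9.68% against 14.6%, and higher in the UBD library, 19.3% against 9.60%.

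Of the 4 marker genes, 3 have promoters in the RefSeq table used here (GRCm38.p6, 250 bases before to 50 after the start), and they are shown because Fcna, Folr2 and Mrc1 are high in the same cells. They lie at chr2:25627925-25628224 on the minus strand for Fcna, chr7:101857141-101857440 on the minus strand for the start site of Folr2 farthest upstream, and chr2:14229164-14229463 on the plus strand for Mrc1. Capitals mark the letters TGCTGA (reverse complement TCAGCA), a core of sites bound by MAF, and GAGGAA (reverse complement TTCCTC), a core of sites bound by the myeloid factor PU.1 (Spi1), both searched on both strands.
Fcna: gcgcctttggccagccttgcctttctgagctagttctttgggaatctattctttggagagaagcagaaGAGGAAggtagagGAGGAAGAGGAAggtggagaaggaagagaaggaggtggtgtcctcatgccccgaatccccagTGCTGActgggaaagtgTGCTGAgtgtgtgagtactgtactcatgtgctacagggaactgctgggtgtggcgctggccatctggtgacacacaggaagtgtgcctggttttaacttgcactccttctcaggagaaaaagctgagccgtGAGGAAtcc
Folr2: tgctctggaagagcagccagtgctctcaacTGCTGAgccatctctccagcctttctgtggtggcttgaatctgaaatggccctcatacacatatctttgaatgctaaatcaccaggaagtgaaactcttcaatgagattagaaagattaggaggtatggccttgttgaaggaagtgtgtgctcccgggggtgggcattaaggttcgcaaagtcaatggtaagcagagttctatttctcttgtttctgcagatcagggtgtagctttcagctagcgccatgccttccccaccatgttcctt
Mrc1: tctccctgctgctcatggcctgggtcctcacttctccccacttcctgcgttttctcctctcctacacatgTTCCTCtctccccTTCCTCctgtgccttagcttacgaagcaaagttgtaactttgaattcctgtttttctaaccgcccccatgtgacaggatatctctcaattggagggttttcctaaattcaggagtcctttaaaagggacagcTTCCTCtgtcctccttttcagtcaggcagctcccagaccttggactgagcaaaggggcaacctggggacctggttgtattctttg
The Fcna promoter held 2 matches of the MAF core and 4 of the PU.1 core. Folr2 held 1 and 0 at this start site, and also 1 and 0 at its other start site at chr7:101845282-101845581. Mrc1 held 0 and 3. Of 32851 promoters of the same length, 19.5% held the MAF core and 28.3% the PU.1 core. A match describes letters in this window and is not a measured binding site. Maf itself stood at 669 CPM in control Lyve1 and Fcna cells against 239 CPM in comparison cells, and at 507 against 110 CPM in the UBD library.

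Lyve1 and Fcna cells made up 1.05% of C1q-positive cells in the control library (31 of 2944, exact binomial interval 0.717 to 1.49) and 5.48% in the UBD library (109 of 1988, 4.52 to 6.58). The UBD share was higher by 4.43 percentage points (Newcombe interval 3.41 to 5.56), a ratio of 5.21. C1q-positive cells as a whole took like shares of the cells with low Cdkn2a, 38.8% in control tumour and 40.2% in UBD tumour, so of those cells the Lyve1 and Fcna cells were 0.408% and 2.20%. A UMI threshold is passed more easily by a deeper cell, and the median C1q-positive cell had 3611 UMIs in control tumour and 5706 in UBD tumour. With every cell thinned to 1000 UMIs the shares were 0.412% (11 of 2673, 0.206 to 0.735) and 2.84% (54 of 1900, 2.14 to 3.69), which left out 271 control and 88 UBD C1q-positive cells below that depth. With a depth of 3000 UMIs they were 0.987% (17 of 1723) and 4.39% (72 of 1641). The UBD share was thus the higher one at each depth.

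Free RNA in droplets can place UMIs in cells that do not make a transcript, so the same count was made in cells that should lack both genes. T cells were those with 2 or more summed UMIs of Cd3d, Cd3e and Cd3g, low Cdkn2a and 0 UMIs of the C1q genes. Requiring 0 C1q UMIs leaves out T cells that hold stray macrophage RNA, so their shares can understate free RNA here and below. No T cell carried 2 or more UMIs of Lyve1 and Fcna, 0 of 316 in control tumour and 0 of 344 in UBD tumour. This allows shares of up to 0.949% and 0.872% at median depths of 3395 and 2608 UMIs. Of cells with high Cdkn2a, 0.0740% (5 of 6757) and 0.323% (28 of 8669) did, at median depths of 12437 and 16820 UMIs. After thinning to 1000 UMIs, 0 of 6492 and 5 of 8535 cells with high Cdkn2a kept 2 or more. The shares in C1q-positive cells lay above those of cells with high Cdkn2a in both libraries. The share in cells with high Cdkn2a was itself higher in the UBD library, by a ratio of 4.36, against 5.21 in C1q-positive cells. The part of free RNA in the difference between the libraries was not tested. For T cells the control comparison is limited by their number, since the exact upper limit of their share is 1.16%, above the 1.05% of C1q-positive cells, and the UBD limit is 1.07%.

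**Figure D1:**
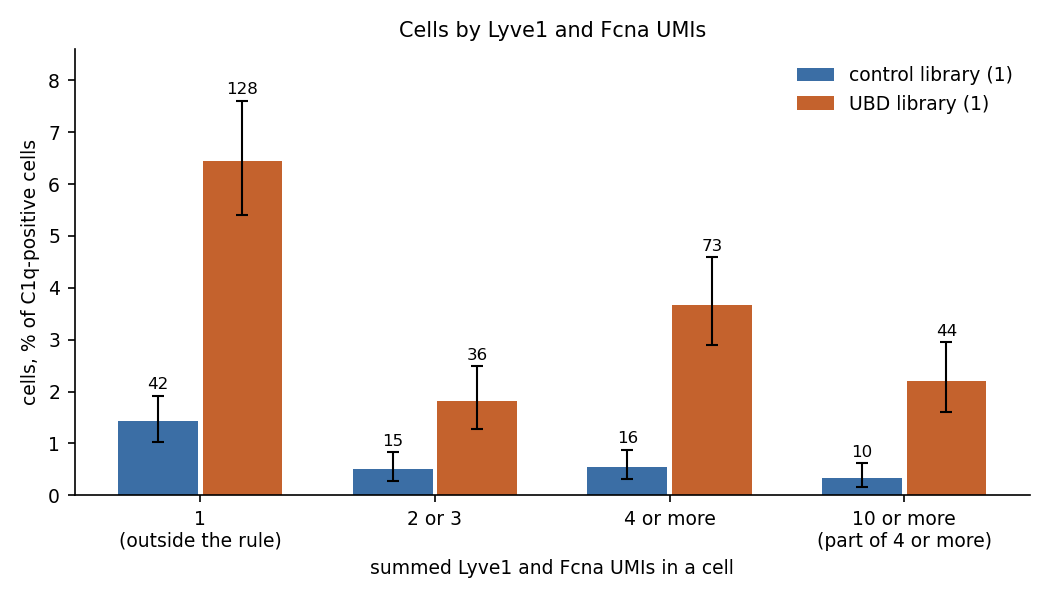
Share of C1q-positive cells (vertical axis, percent) by summed Lyve1 and Fcna UMIs in a cell (horizontal axis), control library in blue and UBD library in orange, with exact binomial 95% intervals and the number of cells above each bar. The UBD bar is the higher one in every class, from 1.43% against 6.44% at 1 UMI to 0.340% against 2.21% at 10 or more.

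The UBD library had the higher share in each class of Lyve1 and Fcna UMIs. Cells with exactly 1 UMI, just outside the rule, were 1.43% of control and 6.44% of UBD C1q-positive cells, and cells with exactly 2, just inside it, were 9 and 21 cells. Cells with 4 or more UMIs were 0.543% (16 cells) and 3.67% (73 cells). The median Lyve1 and Fcna cell carried 4 UMIs of the 2 genes in control tumour and 8 in UBD tumour, and the highest carried 22 and 42. Both genes were detected in 21 control cells (67.7%) and 73 UBD cells (67.0%). Fcna alone was found in 9 and 28 cells, and Lyve1 alone in 1 and 8. The cells had medians of 5435 UMIs (1297 to 23010) in control tumour and 6452 (1283 to 20126) in UBD tumour, against 3555 and 5646 in comparison cells. Their median mitochondrial share was 2.94% and 3.25%, against 1.94% and 2.74%. Doublet calling marked 2 control and 1 UBD member of the set. The deepest cell gave 11.6% of all control UMIs in the set and 2.60% of the UBD ones, so a control value can rest on few cells. Of 71 barcodes that occur in both libraries, 1 belonged to a UBD Lyve1 and Fcna cell.

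Genes outside the rule were graded with the number of Lyve1 and Fcna UMIs. Folr2 stood at 140, 451, 769 and 1790 CPM in control cells with 0, 1, 2 or 3, and 4 or more UMIs, and at 118, 244, 710 and 1192 CPM in UBD cells. At exactly 2 UMIs it stood at 589 and 748 CPM, above the cells with 1 UMI in both libraries. F13a1, which encodes the A subunit of coagulation factor XIII, followed the same order with 90.9, 165, 584 and 1770 CPM and 104, 225, 646 and 1447 CPM. Cd209f, a C-type lectin of the SIGN-related family, was nearly confined to the top class, with 0.984, 0, 38.9 and 1020 CPM in control tumour and 1.12, 6.51, 106 and 841 CPM in UBD tumour. The MHC class II gene H2-Ab1 went the other way in the UBD library, with 2773, 1488, 684 and 122 CPM. In the control library it was 1612, 653, 380 and 604 CPM, with no further drop in the top class. Pf4, a platelet chemokine also made by macrophages, differed in shape between the libraries, with 3407, 6161, 4273 and 1759 CPM in control tumour and 1042, 1652, 2942 and 2797 CPM in UBD tumour. Median depth across these classes was 3555, 7402, 4329 and 5561 UMIs in control tumour and 5646, 6173, 5887 and 6542 UMIs in UBD tumour, and its part in these gradients was not tested.

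**Figure D2:**
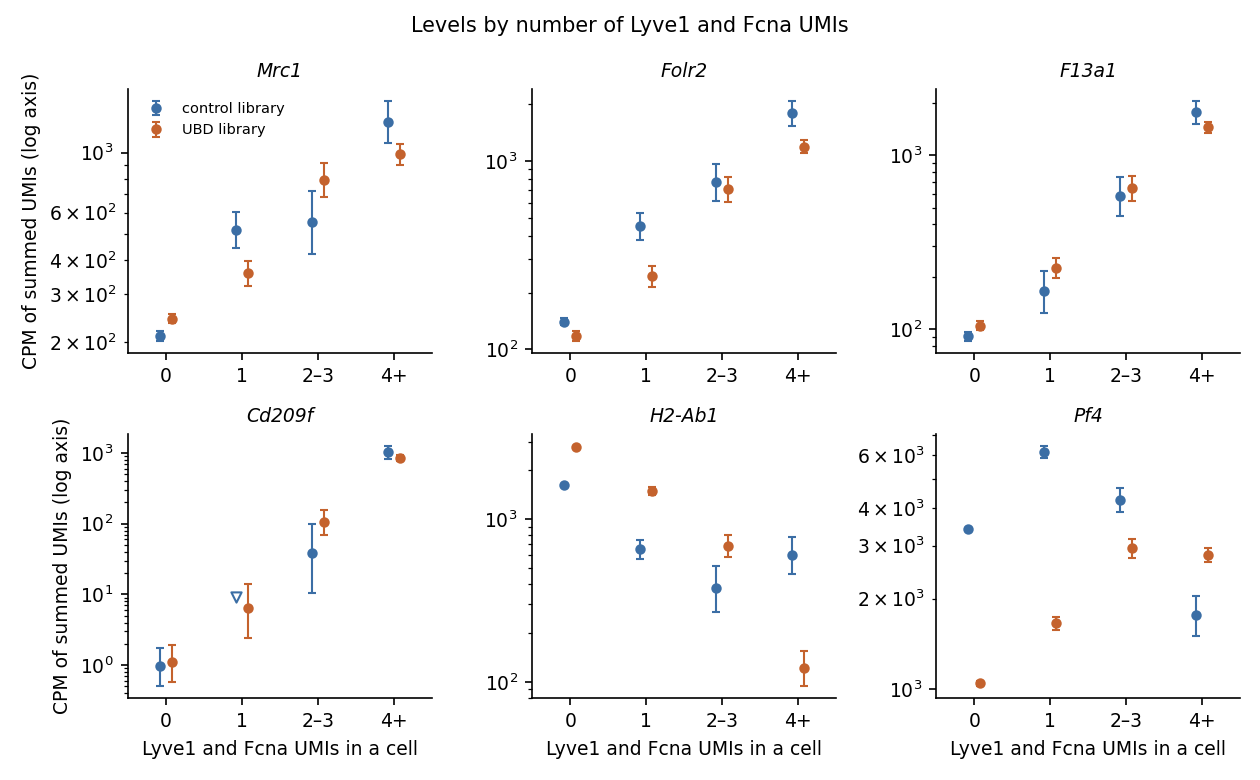
CPM of summed UMIs (vertical log axis) of 6 genes in C1q-positive cells grouped by their summed Lyve1 and Fcna UMIs (horizontal axis), control library in blue and UBD library in orange, with exact Poisson 95% intervals; the open triangle for Cd209f stands for 0 UMIs and is drawn at the level of 3. Mrc1 (210 to 1301 CPM in the control, 243 to 984 in the UBD library), Folr2 and F13a1 are highest at 4 or more UMIs, H2-Ab1 is highest at 0, and Pf4 peaks at 1 UMI in the control library.

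Clustering of all C1q-positive cells without Lyve1, Fcna and the C1q genes placed most of the selected cells together. A cluster led by Cd209f, Cd209d, Cd5l, Cd209g, Timd4, Marco, Sult1a1, Ednrb, Ltc4s and C6 held 23 of the 31 control cells (74.2%) and 71 of the 109 UBD cells (65.1%). That cluster had 34 control and 94 UBD cells in all, and only 10 and 9 of the comparison cells fell in it (0.348% and 0.514%). A further 27 UBD cells (24.8%) fell in a cluster led by Htra1, Fcrls, Col14a1 and Arg1, which held none of the control ones. The rest were scattered over other clusters. A cluster led by Mt3 and the osteoclast genes Oscar and Ctsk held 2 control and 3 UBD selected cells. A cluster led by collagen genes held 4 UBD selected cells, and a cluster of cycling cells held 3. The cluster led by natural killer genes held 2 control selected cells. Comparison cells of the 2 libraries lay mostly in different clusters, 5 clusters holding most control and 3 holding most UBD ones. Since each group is 1 library, a cluster of this kind could reflect its library alone.

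Several resident genes stood higher inside the Cd209f-led cluster than outside it. The clusters used 2000 variable genes, chosen without Lyve1, Fcna, the C1q genes and mitochondrial genes. Genes named here could be among them, so the levels in this paragraph are descriptions. Cd209f stood at 900 CPM in control and 940 CPM in UBD members of that cluster, against 11.5 and 133 CPM in the selected cells outside it. Mrc1 was 1310 and 1086 CPM inside and 404 and 686 CPM outside. Folr2 was 1845 and 1380 CPM inside and 508 and 541 CPM outside. Selected cells outside it had more Folr2 than the comparison cells of both libraries. For Mrc1 the 8 control cells outside it had 35 UMIs, 45.7% of them in 1 cell, and stood at 257 CPM without that cell, against 210 CPM in comparison cells. Cbr2, a carbonyl reductase of resident macrophages, was 775 and 994 CPM inside against 69.3 and 159 CPM outside, and Il10, the anti-inflammatory cytokine, was 241 and 442 CPM against 23.1 and 74.5 CPM. In the UBD library Arg1, the arginine-degrading enzyme of tumour macrophages, went the other way with 157 CPM inside and 1606 CPM outside, as did the matrix protein gene Fn1 with 150 and 1551 CPM. The MHC class II gene H2-Ab1 stood at 731 CPM inside and 173 CPM outside in the control, and at 232 and 385 CPM in the UBD library. Cd74 followed that order with 2593 and 751 CPM, and 691 and 1250 CPM. In the control library the cells inside the cluster thus had more MHC class II RNA than those outside. In the control Pf4 was lower inside, at 1667 against 4861 CPM, and 56.8% of the outside UMIs lay in 1 cell. Without the highest cell of each set, control Pf4 was 1538 CPM inside and 2769 CPM outside. In the UBD library Pf4 was 2777 and 2937 CPM with overlapping intervals, and 2702 and 2726 CPM without the highest cells.

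Across all genes, levels in Lyve1 and Fcna cells were set against comparison cells within each library. A gene counted as measured when at least 10 UMIs would be expected in each set of cells at equal levels, which 2633 genes met in both libraries after those the rule used were left out. Of these, 135 were 1.5-fold or more higher in both libraries (5.13%) and 205 were 1.5-fold or more lower in both (7.79%). A further 48 went past that fold in opposite directions. The minimum rested mostly on comparison cells, which held 12193868 and 10742704 UMIs against 198816 and 774843 in Lyve1 and Fcna cells. It thus left out many genes found mainly in Lyve1 and Fcna cells, which lowers the count of higher genes. With a minimum of 1 expected UMI, 784 were higher and 677 lower of 8790. The median log2 ratio over all measured genes was -0.20 in control tumour and -0.00 in UBD tumour. The gene lists below are read beside these shares and medians.

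Of 28 resident macrophage genes, 11 were measured, 8 were 1.5-fold or more higher in both libraries and none was lower in both. Their median log2 ratios were 2.12 in control tumour and 1.93 in UBD tumour. The list and the markers share Mrc1 and Folr2, and the list was drawn up with earlier results of these data known. Fcgrt, the receptor that recycles IgG and albumin, stood at 719 CPM (606 to 847) in control Lyve1 and Fcna cells against 55.4 CPM in comparison cells, 12.99-fold higher (10.8 to 15.6). In the UBD library it stood at 799 CPM (737 to 864) against 58.6 CPM, 13.6-fold higher (12.2 to 15.2). F13a1 was 12.7-fold higher in the control (1157 against 90.9 CPM) and 11.5-fold in the UBD library (1204 against 104 CPM). Folr2 was 8.99-fold and 8.88-fold higher, and Mrc1 4.36-fold and 3.81-fold. For these genes the ratio was nearly the same in the 2 libraries.

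Selenop, the selenium transport protein, was 10.2-fold higher in the control (9.43 to 11.1, 3476 against 339 CPM) and 5.66-fold in the UBD library (5.30 to 6.03, 1718 against 304 CPM). Stab1, a scavenger receptor, was 3.11-fold higher in the UBD library (2.66 to 3.63) and 1.21-fold in the control (0.747 to 1.86), where the interval includes no change. With every cell thinned to 1000 UMIs, Stab1 was found in 25.8% of control Lyve1 and Fcna cells (11.9 to 44.6) and 25.7% of UBD ones. The shares of comparison cells were 8.38% and 8.34%, so by detection Stab1 was higher in both libraries. Pf4 was 2.73-fold higher in the UBD library (2841 against 1042 CPM), while in the control its levels were 3058 and 3407 CPM. A single control cell held 39.3% of those control Pf4 UMIs.

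The other 17 resident genes fell below the minimum, mainly since comparison cells had so little of them, and are given by their levels alone. Cd163, the haemoglobin scavenger receptor, stood at 101 CPM (20 UMIs) in control and 134 CPM (104 UMIs) in UBD Lyve1 and Fcna cells, against 3.61 and 1.49 CPM in comparison cells. The 20 control UMIs lay in 5 of 31 cells, 45.0% of them in 1 cell. Cbr2 stood at 468 and 661 CPM against 28.3 and 15.4 CPM. Gas6, the bridging ligand of the TAM receptors for dead cells, stood at 568 and 454 CPM against 22.1 and 17.8 CPM. Igf1, the insulin-like growth factor, stood at 181 and 117 CPM against 8.12 and 5.31 CPM. Ednrb, an endothelin receptor, stood at 236 and 343 CPM against 6.81 and 1.68 CPM. Each of these genes stood above the comparison cells in both libraries. Timd4, the phosphatidylserine receptor TIM4, differed in count, with 1 UMI in 31 control cells and 36 UMIs in 16 of 109 UBD cells. Vsig4 had 2 and 13 UMIs against 0 and 0 in comparison cells, and Slc40a1, the iron exporter ferroportin, had 0 and 3.

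Beyond that list, the rule for naming genes picked the 15 with the largest ratio in the library where the ratio was smaller. Wfdc17, a small secreted protein of macrophages, was 10.2-fold higher in the control (5558 against 543 CPM) and 14.0-fold in the UBD library (6770 against 484 CPM). The serine protease inhibitor Serpinb6a was 8.12-fold and 6.12-fold higher, and Tcn2, which carries vitamin B12, was 7.26-fold and 5.13-fold. Gdf15, a stress-induced cytokine of the TGF-beta family, was 5.97-fold and 7.24-fold higher. Aldh2, the mitochondrial aldehyde dehydrogenase, was 5.86-fold and 4.41-fold higher, Timp2, a metalloproteinase inhibitor, 4.93-fold and 3.80-fold, and Mtss1 4.17-fold and 3.34-fold. The chemokine Ccl8 stood at 8928 and 7565 CPM, 4.55-fold and 3.69-fold above comparison cells. Ccl6 stood at 2902 and 4840 CPM, 4.04-fold and 8.69-fold above. Each of these genes was at least 3-fold higher in both libraries.

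Ighm, the heavy chain of IgM, was also among them, with 59 UMIs in 20 of 31 control cells and 89 UMIs in 42 of 109 UBD cells, 297 and 115 CPM against 52.4 and 25.8 CPM in comparison cells. Among the other B or plasma cell markers, Cd79a, Cd79b, Ms4a1, Jchain and Mzb1 were at 0 in the Lyve1 and Fcna cells of both libraries. After thinning to 1000 UMIs, Ighm was seen in 35.5% and 18.3% of Lyve1 and Fcna cells, against 4.21% and 3.57% of T cells and 3.96% and 2.58% of comparison cells. The Ighm UMIs lay mostly in the Cd209f-led cluster, at 508 CPM inside against 23.1 CPM outside in control tumour and 185 against 9.71 CPM in UBD tumour.

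To set detection apart from depth, cells were compared after thinning to 1000 UMIs. Folr2 was then found in 67.7% of control and 67.0% of UBD Lyve1 and Fcna cells, against 11.1% and 10.7% of comparison cells. F13a1 was found in 74.2% and 67.9%, against 6.99% and 8.46%. For T cells the F13a1 shares were 0 of 309 and 1 of 336. Mrc1 was found in 67.7% and 56.9%, against 15.98% and 20.7%. Without thinning, F13a1 was found in 87.1% and 89.0% of Lyve1 and Fcna cells.

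**Figure D3:**
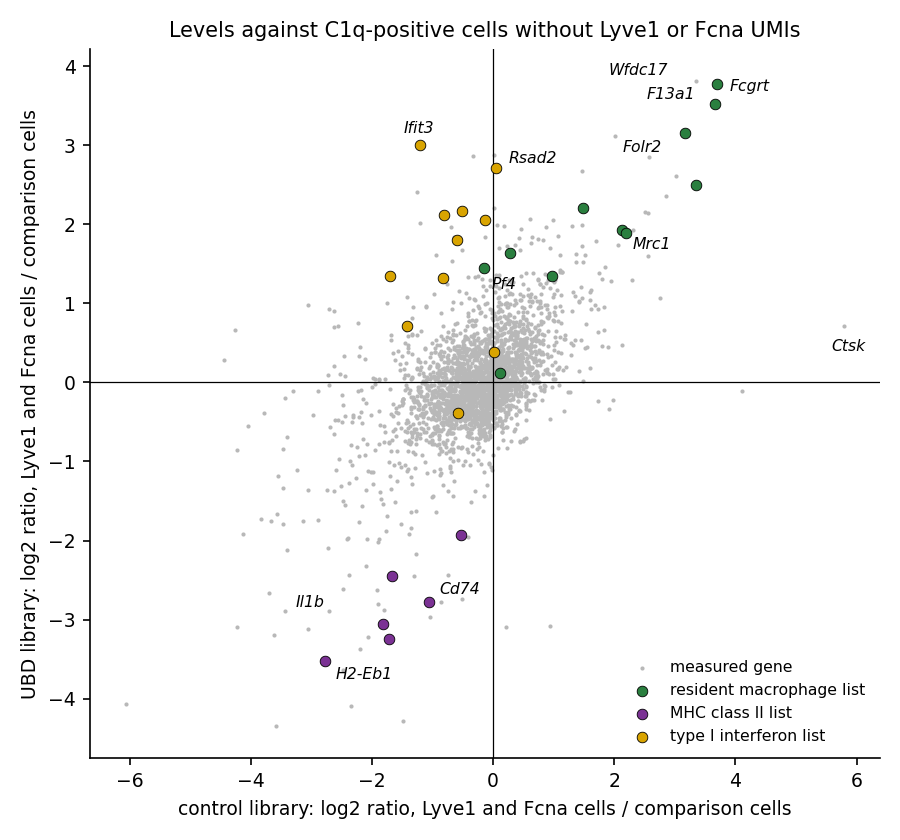
Log2 ratio of Lyve1 and Fcna cells to comparison cells in the control library (horizontal axis) and in the UBD library (vertical axis), 1 point per measured gene, with resident macrophage, MHC class II and type I interferon genes coloured. Fcgrt (3.70 and 3.77) and F13a1 (3.67 and 3.53) lie at the upper right, H2-Eb1 (-2.77 and -3.52) at the lower left, and Ifit3 (-1.21 and 2.996) at the upper left.

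MHC class II genes were lower in summed level. Of 10 listed, 6 were measured and 5 were 1.5-fold or more lower in both libraries, with median log2 ratios of -1.70 in control tumour and -2.92 in UBD tumour. H2-Eb1, a beta chain of the antigen-presenting dimer, stood at 216 CPM (157 to 291) in control Lyve1 and Fcna cells against 1479 CPM, and at 206 CPM (176 to 241) against 2365 CPM in the UBD library, which is 6.84-fold and 11.5-fold lower. H2-Ab1 was 3.30-fold and 9.46-fold lower, and Cd74, the invariant chain, 2.09-fold and 6.88-fold. The level of H2-Ab1 in the Lyve1 and Fcna cells was 488 CPM in control tumour and 293 CPM in UBD tumour, while in comparison cells it was 1612 and 2773 CPM. The UBD ratio was thus the larger one through both a lower level in the selected cells and a higher level in the comparison cells. The sixth measured gene, H2-DMa, was 1.45-fold lower in the control (0.992 to 2.20) and 3.80-fold in the UBD library.

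Monocyte genes were lower too, 4 of 8 measured in both libraries and none higher in both, with medians of -1.94 and -1.84. Ly6c2, the surface marker of classical monocytes, stood at 70.4 CPM against 847 CPM in the control, 12.02-fold lower, and at 1 UMI in the UBD Lyve1 and Fcna cells against 26.2 CPM. Cx3cr1, the fractalkine receptor, had 2 UMIs in the control (ratio 6.595-fold lower, 1.82 to 54.6) and was 4.27-fold lower in the UBD library. Plac8 went in opposite directions, 1.56-fold lower in control tumour and 3.57-fold higher in UBD tumour.

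Of 12 measured inflammatory genes, 2 were lower in both libraries and none higher in both, with medians of -0.35 and -0.12. Il1b, the cytokine interleukin-1 beta, stood at 141 CPM against 1526 CPM in control tumour and 195 against 1444 CPM in UBD tumour, 10.8-fold and 7.41-fold lower. A single control cell held 85.7% of the 28 control Il1b UMIs. With predicted doublets removed the control log2 ratio moved from -3.44 to -6.17. Ptgs2, the prostaglandin-forming enzyme COX2, was 5.47-fold and 2.92-fold lower. The other named genes that were lower included Scimp, an adaptor at MHC class II, at 2 and 5 UMIs (12.3-fold, 3.40 to 102, and 9.13-fold, 3.89 to 28.2), and the survival genes Bcl2a1a (8.32-fold and 8.69-fold) and Bcl2a1d (5.07-fold and 17.1-fold). Dusp2, a phosphatase of MAP kinases, was 6.57-fold and 7.43-fold lower, Gngt2 5.18-fold and 5.42-fold, and AA467197, also called Nmes1, 4.60-fold and 10.4-fold. Ltb4r1, the leukotriene B4 receptor, had 3 and 4 UMIs and was 5.58-fold and 12.5-fold lower. Ass1, which makes argininosuccinate, had 0 UMIs in the control, at least 4.21-fold lower against the level of 3 UMIs over the 31 cells, and was 9.29-fold lower in the UBD library.

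Other lists divided within themselves. Of 20 measured transcription factors of macrophages, 7 were higher and 1 lower in both libraries, with medians of 0.27 and 0.50. Klf2, Klf4 and Mef2c were 3.61-fold, 3.20-fold and 3.56-fold higher in control tumour and 2.76-fold, 1.964-fold and 1.94-fold in UBD tumour, Maf was 2.80-fold and 4.62-fold, and Runx3 was 2.63-fold and 3.77-fold lower. Id3 went in opposite directions, at 40.2 against 92.7 CPM in control tumour and 134 against 33.1 CPM in UBD tumour. Among 8 measured iron genes 3 were higher in both, with medians of 0.25 and 0.77. They were Hmox1, which breaks down haem (1.83-fold and 3.91-fold), Blvrb (2.01-fold and 2.42-fold) and the transferrin gene Trf (6.75-fold and 2.10-fold). Of 16 dissociation stress genes, 4 were higher in both and none lower, with medians of 0.24 and 0.88. Egr1 stood at 1252 against 486 CPM in control tumour and 559 against 195 CPM in UBD tumour.

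Scavenger and endocytic receptors had medians of 0.18 and 0.11 over 12 measured genes, with 2 higher and 1 lower in both libraries. Beside Mrc1, the lysosomal receptor Scarb2 was higher (2.45-fold and 1.87-fold) and Fcgr4, an activating Fc receptor, lower (2.64-fold and 2.14-fold). Among 7 measured efferocytosis genes 3 were lower and 1 higher in both, with medians of -0.95 and -0.71. Axl, a receptor for dead cells, was 3.69-fold and 3.96-fold lower, while its relative Mertk, under the minimum, stood at 55.3 and 41.3 CPM against 18.6 and 11.8 CPM. Complement genes had medians of 0.33 and 0.49 over 5 measured, with C5ar1, the C5a receptor, higher in both (1.57-fold and 2.04-fold). Under the minimum, C4b stood at 292 and 225 CPM against 32.3 and 24.4 CPM.

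Of 12 measured matrix and protease genes, 4 were higher and 4 lower in both libraries, with medians of -0.38 and -0.22. The lysosomal proteases Ctsb (2.21-fold and 2.63-fold) and Ctsd (2.60-fold and 3.09-fold) were among those higher, and Tgfbi, an extracellular matrix protein, was 3.08-fold and 2.86-fold lower. Lipid-associated genes had medians of -0.10 and 0.32 over 15 measured, 4 higher in both and none lower in both. Apoe, the lipid carrier, was higher by 2.94-fold in control tumour and 1.37-fold in UBD tumour. Glycolysis and hypoxia genes were lower in both for 5 of 15 measured, with medians of -0.51 and -0.58, and none was higher in both. Slc2a1, the glucose transporter GLUT1, was 3.02-fold and 2.37-fold lower, and Vegfa, the vascular growth factor, 2.53-fold and 2.45-fold.

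Growth and angiogenic factors had 2 higher and 2 lower in both of 6 measured (medians 0.91 and 0.23), with Nrp1, a co-receptor of VEGF, 2.75-fold and 6.39-fold higher. Il10 was under the minimum and stood at 146 and 296 CPM against 38.9 and 12.7 CPM, though a single control cell held 44.8% of the 29 control UMIs. Of 4 measured arachidonic acid genes 1 was lower in both, with medians of 0.11 and -0.27. Ltc4s, the leukotriene C4 synthase, was under the minimum at 372 and 561 CPM against 2.87 and 11.3 CPM, and Alox5 stood at 50.3 and 68.4 CPM against 0.820 and 2.89 CPM. Alternative activation genes had medians of 0.41 and 0.32 over 5 measured, of which only Mrc1 was higher in both. MHC class I genes had medians of -0.40 and 0.13 over 15 measured, with 2 lower in both. Few genes of the remaining lists were measured. The 3 measured G2/M genes had medians of -2.54 and -0.59 with 2 lower in both, and the 2 measured G1/S genes 0.11 and 0.50. The G2/M median turned to 1.13 in the control after thinning to 1000 UMIs and to 0.33 in the UBD library against comparison cells of like depth. The 3 measured osteoclast-like genes had medians of 4.11 in control tumour and -0.11 in UBD tumour with 1 higher in both, and the control median was -0.39 in the Cd209f-led cluster alone, with Ctsk at 0 UMIs set to 3.

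Chemokines of macrophages differed between the libraries. Of 15 measured, 3 were higher and 5 lower in both, and the medians were -0.45 in control tumour and 0.97 in UBD tumour. Ccl8, Ccl6 and Ccl9 were higher in both. Cxcl9 (18.7-fold, 5.18 to 155, from 2 UMIs, and 8.52-fold), Cxcl10 (9.40-fold and 2.16-fold) and Ccl5 (3.75-fold and 7.01-fold), which attract T cells, were lower in both. The monocyte attractants Ccl2 and Ccl7 were 3.26-fold and 3.96-fold higher in the UBD library, against 1.07-fold and 1.05-fold in the control. Their levels in Lyve1 and Fcna cells were 1871 and 2400 CPM for Ccl2 and 2429 and 2455 CPM for Ccl7, while comparison cells had 1745 and 736 CPM, and 2315 and 620 CPM. The comparison cells thus differed more between the libraries than the selected cells did.

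**Figure D4:**
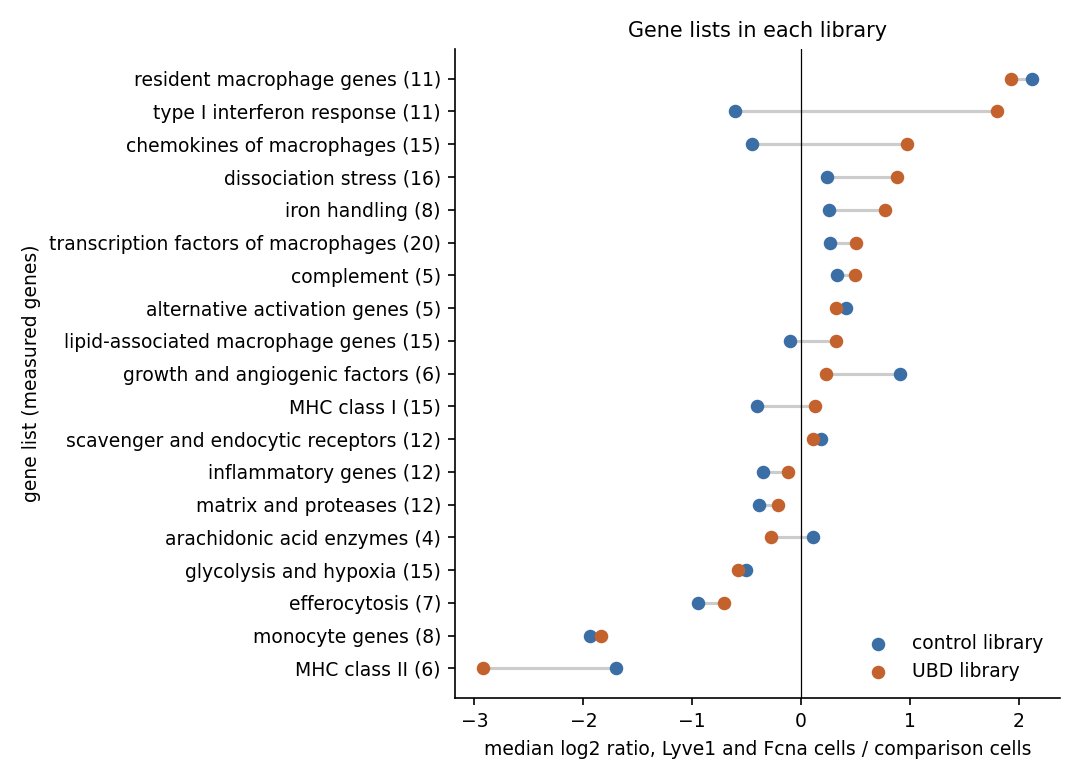
Median log2 ratio of Lyve1 and Fcna cells to comparison cells (horizontal axis) for each gene list with at least 4 measured genes (vertical axis, number measured in parentheses), control library in blue and UBD library in orange. Resident genes lie at 2.12 and 1.93, MHC class II genes at -1.70 and -2.92, and the type I interferon list at -0.60 and 1.80, on opposite sides of 0.

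Type I interferon response genes, which cells switch on after sensing interferon, showed the same contrast more strongly. Of 11 measured, 6 were 1.5-fold or more lower and none higher in control Lyve1 and Fcna cells, and 9 were higher and none lower in the UBD ones, with medians of -0.60 and 1.80. Over all 2633 measured genes, 28.3% were lower and 10.3% higher by that fold in the control, and 14.4% were higher and 10.7% lower in the UBD library. Ifit3, an RNA-binding effector, stood at 121 CPM (77.3 to 180) in control Lyve1 and Fcna cells and 78.7 CPM (60.2 to 101) in UBD ones. In comparison cells it stood at 278 CPM in control tumour and 9.87 CPM in UBD tumour. Irf7, the transcription factor that amplifies the response, stood at 428 and 150 CPM in Lyve1 and Fcna cells and at 650 and 42.9 CPM in comparison cells. Rsad2, the antiviral enzyme viperin, stood at 518 and 212 CPM against 502 and 32.2 CPM. From the control to the UBD library the list had a median log2 ratio of -0.63 in Lyve1 and Fcna cells and -3.68 in comparison cells, over 13 genes measured in both. Of control comparison cells, 19.6% lay in a cluster with Ifit1bl1 and Mx1 among its leading genes and 17.1% in one with Ifi44, Ifit3b and Ifit2, against 0.228% and 0.286% of UBD comparison cells. Among UBD Lyve1 and Fcna cells, Ifit3 stood at 129 CPM inside the Cd209f-led cluster and had 1 UMI outside it. In the control it was 134 CPM inside and 104 CPM outside.

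**Figure D5:**
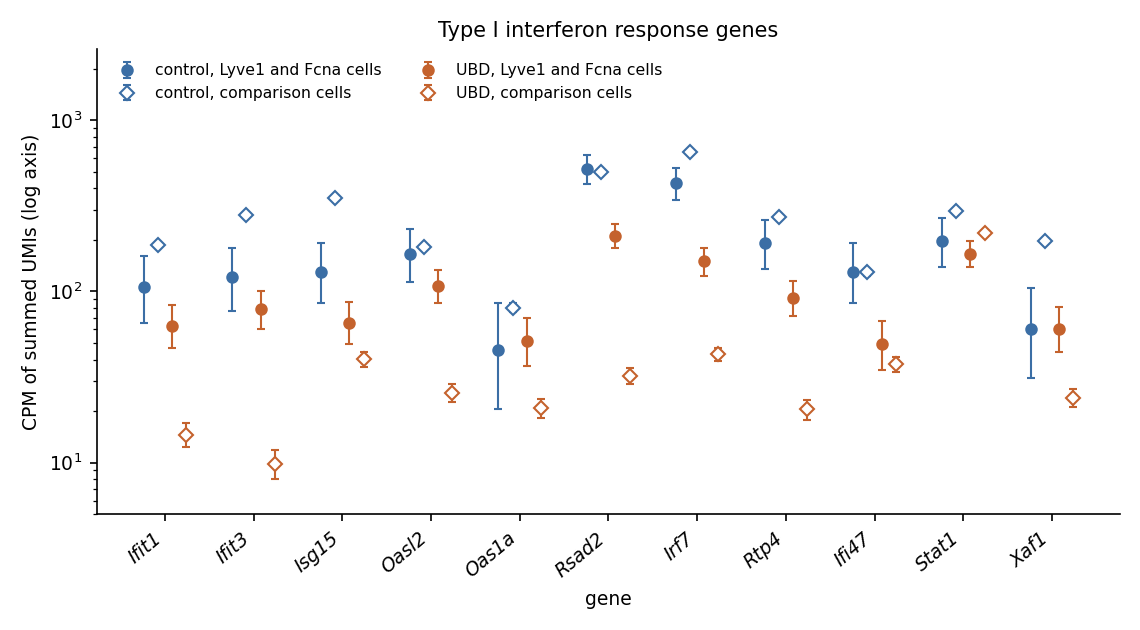
CPM of summed UMIs (vertical log axis) of 11 measured type I interferon genes (horizontal axis), filled circles for Lyve1 and Fcna cells and open diamonds for comparison cells, control library in blue and UBD library in orange, with exact Poisson 95% intervals. For Ifit3 the comparison cells lie at 278 CPM in control tumour and 9.87 in UBD tumour, with the Lyve1 and Fcna cells between them at 121 and 78.7.

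Within the Lyve1 and Fcna cells, 2659 genes were measured between the libraries. Of these, 552 were 1.5-fold or more higher in the UBD library (20.8%) and 321 were 1.5-fold or more lower (12.1%). The median log2 ratio was 0.13. The minimum used the level over both libraries, and these cells held 774843 UMIs in UBD and 198816 in control tumour. A gene found only in UBD cells thus passed at a lower level than one found only in control cells. The part of this in the 2 counts was not tested. Comparison cells had 1136 higher and 2651 lower of 11674 measured. Over the 2657 genes measured in both kinds of cell, 94 were higher and 152 lower in both, and 39 went in opposite directions. The 2 comparisons rest on the same pair of libraries and are set side by side without a test.

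Resident macrophage genes as a list differed little between the libraries, with a median log2 ratio of -0.27 over 23 measured, 1 higher and 4 lower, and -0.29 in comparison cells. Cd209f stood at 513 and 618 CPM, Folr2 at 1262 and 1045 CPM and Mrc1 at 915 and 927 CPM in control and UBD tumour. Stab1 was the gene that was higher, at 106 and 266 CPM. With every cell thinned to 1000 UMIs, the share of cells with Stab1 was alike, 25.8% in control and 25.7% in UBD tumour. Selenop was lower in the UBD library (3476 and 1718 CPM), as was Clec10a, the galactose-type lectin (624 and 190 CPM), which was found in 23 of 31 control and 53 of 109 UBD cells.

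Fn1 had the largest ratio towards the UBD library, with 549 UMIs in 57 of 109 UBD cells and 5 UMIs in 31 control cells, 709 against 25.1 CPM, 28.2-fold higher (12 to 87.1). In comparison cells it was 7.38-fold higher (719 against 97.5 CPM). Of the 549 UMIs, 479 lay in the 38 UBD cells outside the Cd209f-led cluster, and inside it Fn1 was 5.62-fold higher (1.85 to 27.9, from 3 and 70 UMIs). Other named genes rested on 1 to 3 control UMIs. They included the cell cycle genes Top2a (10.8-fold, 2.89 to 90.4), Dut (9.62-fold, 2.57 to 80.9) and Rrm1 (7.44-fold, 1.97 to 62.9), the ribosome assembly factor Nop58 (12.6-fold, 2.15 to 507), Ckap4 (10.5-fold, 2.82 to 88.3), Lsm8 (8.34-fold, 2.22 to 70.3), Pdlim4 (8.47-fold, 2.25 to 71.4) and the chemokine Cxcl9 (8.08-fold, 2.15 to 68.2). Stmn1, a microtubule regulator of dividing cells, was 8.43-fold higher from 7 and 230 UMIs (4.03 to 21.2). All 4 measured G2/M genes and 4 of 5 G1/S genes were higher in the UBD Lyve1 and Fcna cells, with medians of 2.42 and 1.497 against 1.14 and 0.76 in comparison cells. After thinning to 1000 UMIs the G1/S median was -1.15. Mki67 had 0 UMIs in control and 49 in UBD Lyve1 and Fcna cells.

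The collagen genes Col3a1 (13.2-fold, 4.42 to 64.6, from 3 and 154 UMIs) and Col1a2 (10.5-fold, 2.82 to 88.3, from 2 and 82 UMIs) were also higher in the UBD library. In the UBD library 2 cells held 92.7% of the Col1a2 UMIs and 63.0% of the Col3a1 UMIs. The 10 fibroblast markers summed to 70.4 CPM in control and 596 CPM in UBD Lyve1 and Fcna cells, with Rgs5 at 0 in both, against 437 and 296 CPM in comparison cells. Cells with high Cdkn2a held Col3a1 at 542 and 571 CPM. The part of other cells in these collagen values was not tested.

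Of the 12 genes named as lower in the UBD library, 5 were osteoclast-like genes (Ctsk, Mmp9, Acp5, Ckb and Atp6v0d2), and these rested on few control cells. Ctsk, the collagen-degrading cathepsin K, had 386 UMIs in the control, all of them in 2 of 31 cells, and 232 UMIs in 21 of 109 UBD cells, 1942 against 299 CPM. Mt3 had 57 UMIs, all in 2 control cells, and 2 cells held 97.7% of Mmp9, 96.7% of Acp5 and 88.7% of Ckb UMIs. Atp6v0d2, a subunit of the proton pump, had 27 UMIs in each library and was 3.90-fold lower. The 6 osteoclast-like markers summed to 4386 and 794 CPM in Lyve1 and Fcna cells and 159 and 667 CPM in comparison cells. Over all Lyve1 and Fcna cells Ctsk was 6.48-fold lower in the UBD library. In the Cd209f-led cluster alone Ctsk had 0 UMIs in 23 control cells and 16 UMIs in 71 UBD cells, at least 1.28-fold higher in the UBD library against 3 control UMIs over the group.

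The other named genes were spread over more of the Lyve1 and Fcna cells. Retnla is a secreted protein of alternatively activated macrophages. It stood at 890 CPM in 11 of 31 control cells and 222 CPM in 27 of 109 UBD cells, 4.01-fold lower (3.23 to 4.98). In comparison cells it was 7.31-fold higher in the UBD library, but was found in only 26 of 2871 control and 20 of 1751 UBD cells. Cfb, complement factor B, was 4.74-fold lower (141 and 29.7 CPM) and also 5.11-fold lower in comparison cells. Vps37b (4.18-fold), Lars2, a mitochondrial tRNA ligase (4.01-fold), and Tob2 (3.57-fold) were lower in comparison cells too, by 4.56-fold, 4.03-fold and 2.23-fold. Nr4a2, an immediate-early nuclear receptor, was 3.51-fold lower (272 and 77.4 CPM) and 1.27-fold lower in comparison cells. Dissociation stress genes had a median of -0.55 in Lyve1 and Fcna cells, 7 of 16 lower and none higher, and -1.06 in comparison cells. MHC class II genes had medians of -0.47 and 0.77, glycolysis and hypoxia genes 0.62 and 0.50, and transcription factors -0.56 and -0.67.

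Markers of other cell types were counted in the same cells. Here 22 control (71.0%) and 58 UBD (53.2%) Lyve1 and Fcna cells had 2 or more summed UMIs, against 40.3% and 42.5% of comparison cells. The sum ran over the endothelial, lymphatic endothelial, fibroblast, T cell and B or plasma cell lists. The B or plasma list alone reached 2 UMIs in 13 control (41.9%) and 23 UBD cells (21.1%), against 6.44% and 4.45% of comparison cells. Of its UMIs, Ighm gave all 59 in control and 89 of 90 in UBD Lyve1 and Fcna cells. Endothelial markers summed to 10.1 and 19.4 CPM against 33.0 and 17.0 CPM, with Tek, Emcn and Tie1 at 0 in both libraries. Of the lymphatic markers, whose vessels also express Lyve1, only Pdpn was detected, and Prox1, Flt4, Reln and Mmrn1 were at 0 in both libraries. T cell markers summed to 70.4 and 32.3 CPM against 88.8 and 135 CPM, and tumour markers to 25.1 and 123 CPM against 111 and 111 CPM. Natural killer markers stood at 141 and 3.87 CPM against 102 and 22.2 CPM, and the 2 control cells in the cluster led by those genes belong to this set. Plasmacytoid dendritic markers summed to 1092 and 860 CPM against 1462 and 436 CPM in comparison cells, with Siglech, Ccr9 and Klk1 at 0. Conventional dendritic markers summed to 35.2 and 49.0 CPM against 67.2 and 49.2 CPM, with Xcr1, Clec9a and Flt3 at 0. Neutrophil markers summed to 40.2 and 29.7 CPM against 189 and 38.1 CPM, with Ly6g at 0. Mast cell, platelet and erythroid markers had at most 2 UMIs each. Prox1, Cd79a, Siglech and Clec9a were at 0 in these cells, while other members of the lists were detected. Of 10 T cell markers, 4 were detected in control and 8 in UBD Lyve1 and Fcna cells. Of 10 fibroblast markers these numbers were 6 and 9, and of 9 tumour markers 3 and 7.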

How the data were processed

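Droplet single-cell RNA sequencing of dissociated tumours was done with 10x Chromium 3' v3 kits, per the labels' protocols. The authors deposited raw UMI counts of 31053 genes for each barcode, 1 matrix for each library. The submitters' processing notes name Cell Ranger and STAR with mm10, and the matrices carry software version 3.1.0, per the file headers. For the annotation and the calling of cells, details were not stated in the sources at hand. Gene IDs matched GENCODE vM21 for 30934 genes.

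The libraries held 14890 and 14158 barcodes with 173973178 and 204267192 UMIs, and 14353 and 13619 barcodes passed the filter. The members, the 23 gene lists and the 16 marker lists were chosen with earlier results of these data known. UMIs were summed over cells per library. Intervals were exact Poisson for CPM, conditional binomial for ratios, Clopper-Pearson for shares and Newcombe for differences (Python 3.11.15, numpy 2.4.6, scipy 1.17.1, pandas 2.3.3). Copies made after tagging share a UMI and are merged, but all intervals cover counting error only. A gene was called at 1.5-fold with at least 10 expected UMIs in each set. A level at 0 was bounded by 3 UMIs over the set. Clusters came from numpy, sklearn 1.9.0, igraph 0.11.9 and leidenalg 0.10.2 (resolution 1, 15 neighbours, 30 components, 2000 variable genes). Doublets were predicted with Scrublet in scanpy 1.11.5 at an expected rate of 0.1 and kept. The calculations were tested on simulated data.

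Genes were named from the lists, and otherwise as the 15 highest and 12 lowest ratios against comparison cells, ranked by the library nearer to no change, and the 12 highest and 12 lowest ratios between libraries. They needed 50 CPM or more, an interval without 1, and at least 20% of the level in cells with high Cdkn2a. A total of 12 alternatives were planned and 3 were added after seeing the data. Clec7a is not used here, and Aldoa and Ccl21a, whose names occur on more than 1 row, were left out.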

Additional observations from a re-analysis of the deposited data

Results flagged for a closer look

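Some genes were 1.5-fold or more lower than in comparison cells in the control library and 1.5-fold or more higher in the UBD library. With 1 library per group this difference was not tested. Among type I interferon genes the log2 ratio was -1.21 in control tumour and 2.996 in UBD tumour for Ifit3, -0.82 and 2.12 for Ifit1, -0.60 and 1.80 for Irf7, -1.42 and 0.71 for Isg15, and -1.70 and 1.35 for Xaf1. The median of that list was -0.60 and 1.80. Among collagen genes it was -3.05 and 0.98 for Col3a1, -2.63 and 0.90 for Col1a2, and -2.72 and 0.92 for Col1a1. The inhibitor of differentiation Id3 had -1.20 and 2.02, the lipid droplet gene Plin2 -0.82 and 1.31, the monocyte gene Plac8 -0.64 and 1.84, the MHC class I gene H2-T22 -0.75 and 0.63, and the actin-associated gene Pdlim4 -2.62 and 0.70.

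For Plin2, levels in Lyve1 and Fcna cells were 357 CPM in control tumour and 510 CPM in UBD tumour, against 630 and 205 CPM in comparison cells. For Plac8 they were 624 and 439 CPM, against 972 and 123 CPM. For these 2 genes the comparison cells differed more between the libraries than Lyve1 and Fcna cells did, as they also did for H2-T22, Ifit3, Ifit1, Irf7, Isg15 and Xaf1. The opposite held for the other 5 genes. Between libraries Id3 was 3.34-fold higher in UBD Lyve1 and Fcna cells and 2.80-fold lower in UBD comparison cells. Col3a1 was 13.2-fold higher and 1.24-fold lower, Col1a2 10.5-fold higher and 1.10-fold lower, Col1a1 6.62-fold higher and 1.88-fold lower, and Pdlim4 8.47-fold higher and 1.18-fold lower.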

How the results depend on the processing

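No paired analysis was possible because each group holds 1 library. The UBD share of C1q-positive cells stayed above the control share under every alternative run. Control against UBD shares were 2.48% and 11.9% with 1 or more UMIs (difference 9.44 points), 0.713% and 3.67% with both genes required (2.96), and 0.412% and 2.84% after thinning to 1000 UMIs (2.43). The UBD share was 4.43% with 3 or more UMIs and 3.57% for the Cd209f-led cluster alone (difference 2.79, added after seeing the data), and the control share 0.515% without cells bearing markers of 5 other types.

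Genes higher and lower than in comparison cells in both libraries numbered 11 and 62 of 184 measured after thinning, 36 and 71 of 864 without those cells, and 784 and 677 of 8790 with a minimum of 1 expected UMI; 130 were lower with 1 or more UMIs. Genes higher and lower in the UBD library numbered 66 and 28 of 177, 175 and 101 of 864, and 2934 and 1827 of 9049, and 662 were lower with 1 or more UMIs. Fewer cells and UMIs leave fewer genes measured.

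Between libraries, Ctsk reversed to a log2 ratio of 2.35 with 3 or more UMIs per 10000 (from 2 control UMIs), and to at least 1.66 with both genes required and at least 0.36 in the Cd209f-led cluster, where the control had 0 UMIs and was set to 3, Acp5 to 0.36 and 0.44 under the first 2 of these rules, and Atp6v0d2 to 0.99 with both genes required (1 control UMI). The osteoclast-like median reversed to 0.17 and 0.44 between libraries under the same 2 rules, and to -0.80, -0.47 and -0.39 under the 3 rules in turn against control comparison cells, the last 2 being the Ctsk value with 0 UMIs set to 3. The G1/S median was -1.15 between libraries after thinning. The G2/M median against comparison cells was 0.072 with 1 or more UMIs and 1.13 after thinning in the control, and 0.33 against UBD cells of like depth. These cell cycle and osteoclast medians rest on few genes and cells. Of 1031 values of named genes under the alternatives, 705 moved less than counting error, 320 moved more and 6 reversed. Of 873 list medians these numbers were 715, 149 and 9, and the G2/M median between libraries could not be computed after thinning.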
